A study of Homo sapiens with 6 samples.

Results

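ATP-binding cassette (ABC) genes were described in cells of the small cell lung cancer line NCI-H69, an established line kept in RPMI-1640 medium. The members were the rows of the deposited gene table whose symbol was ABCA to ABCG with a number, or CFTR, TAP1 or TAP2, which belong to the family under other names. This gave 47 of the 17170 genes in the table. The family as listed here has 48 genes, and ABCC12 is not analysed here. The series has 6 libraries of polyadenylated RNA: 3 of cells with a stable CRISPR/Cas9 knockout of SCRMP, a product encoded by MIR7-3HG, and 3 of cells made with a non-targeting guide RNA as negative control. The labels do not say whether the knockout cells are a single clone. Of the column names that the labels give, those of all 3 control libraries occur in the table and 0 of the 3 of the knockout, so every value below is a level in the 3 control libraries, and no comparison between genotypes was made. The labels call them biological replicates without saying how far the cultures were separate, so each SD covers the spread between these libraries only.

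ABC proteins bind and split ATP at paired nucleotide-binding domains, and most use it to move a substrate across a membrane. Some are single long chains that work alone, and others are short chains that must form dimers. Subfamilies ABCA and ABCG mostly move lipids and sterols, ABCB holds drug pumps as well as organelle transporters, ABCC holds conjugate and drug pumps together with ion channel proteins, and ABCD serves peroxisomes and lysosomes. ABCE and ABCF have no membrane domain and act on ribosomes. Export pumps of subfamilies B, C and G are widely studied in small cell lung cancer because they can lower drug levels in cells.

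The control libraries held 20941185, 22309228 and 22477571 estimated reads. Levels are given in TPM, the share of a library's transcripts scaled to a fixed total, which are divided by transcript length and can therefore be compared between genes. The neuroendocrine markers that define most small cell lung cancers were near 0, against the label: of 9 measured 1 was detected, NCAM1 at 25.7 TPM ± 3.66 (SD, n = 3), whereas 8 of 8 mesenchymal markers were, with VIM at 4542 TPM ± 87.8. Of 5 measured leukocyte markers 1 was detected and of 3 endothelial markers 0. Levels below are those of cells labelled NCI-H69. In bulk RNA, fewer cells that express a gene and less RNA per cell cannot be told apart.

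Of the 47 ABC genes 27 were detected, meaning at least 1 TPM in all 3 libraries, against 66.5% of all genes. By the mean, 16 ABC genes had 10 TPM or more, against 44.1% of all genes. The median ABC gene had 4.33, 3.09 and 2.42 TPM in control libraries 1, 2 and 3, against 7.34, 6.71 and 6.44 TPM for the median gene of the table. Levels differed by role. Genes of ribosomes, mitochondria, lysosomes and antigen presentation were all detected, while most genes of lipid and bile transport and of drug efflux were not. Of the 20 genes that were not detected, 18 were below 0.5 TPM in every library. The 3 libraries gave the family 577.5, 541.4 and 536.9 TPM in all, which is 0.0552% ± 0.00223 of all TPM (SD, n = 3), and the 5 highest genes held 46.3% of it.

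**Figure D1:**
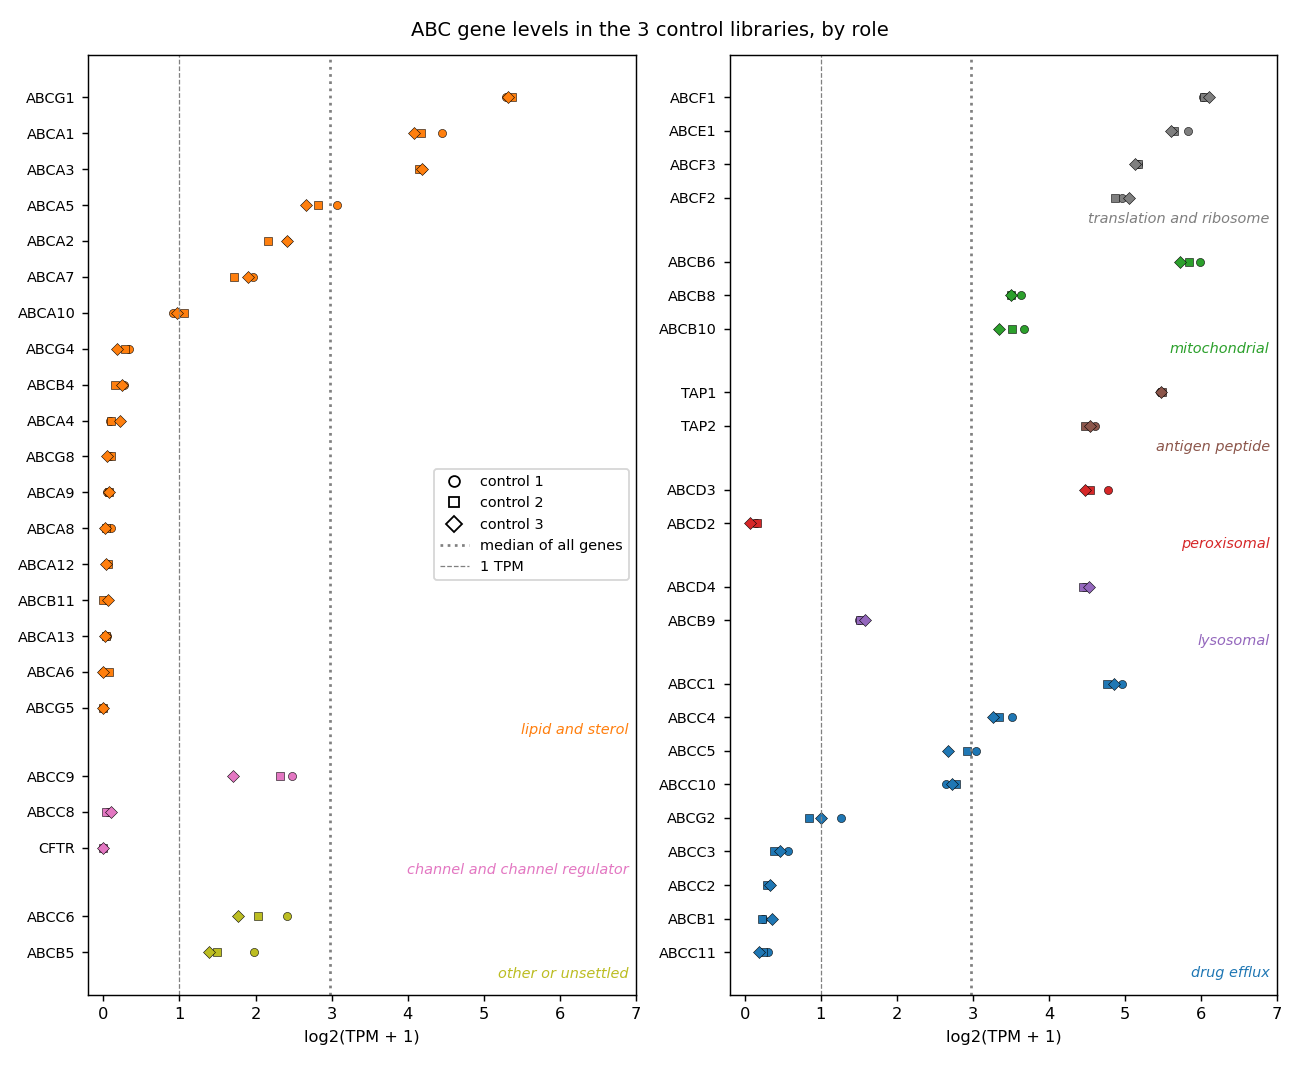
Each row is one of 45 ABC genes and each symbol its level in a control library, on the log2(TPM + 1) scale (circle, square and diamond for control 1, 2 and 3; colours mark roles). The dashed line is 1 TPM and the dotted line the median of all genes; all 4 ribosome genes and the mitochondrial genes shown lie right of the median, and 12 of 18 lipid and sterol genes were not detected.

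Detected ABC genes had more CpG-rich promoters than the others, a feature that the choice of members did not use. RefSeq promoter windows (GRCh38.p14, 250 bases before to 50 after an annotated start) were matched by gene number for 37 of the 47 ABC genes, 22 detected and 15 not. The detected genes had a median of 25.5 CpG dinucleotides in the window, with 15 to 47 per gene. The others had a median of 3, with 1 to 26 per gene. Over all genes with a window, the medians were 27 for the 9462 detected genes and 11 for the 4246 others. The lowest detected ABC genes were ABCB8 with 15 CpG and ABCA2 with 16, and the exception on the other side was ABCG4, a sterol exporter gene of neurons, with 26 CpG and 0.203 TPM ± 0.0666. The windows that follow show this contrast. ABCF1 is the highest ABC gene, ABCC4 and ABCC2 are drug and conjugate pumps on either side of 1 TPM, and ABCA5 and ABCA10 are chromosome neighbours on either side of it by mean. ABCA10 lay close to that limit, at 0.88, 1.08 and 0.96 TPM in the libraries. Capitals mark CpG dinucleotides, and each sequence runs 5′ to 3′ on the strand of its gene.
ABCF1 (chr6:30571192-30571491, plus strand): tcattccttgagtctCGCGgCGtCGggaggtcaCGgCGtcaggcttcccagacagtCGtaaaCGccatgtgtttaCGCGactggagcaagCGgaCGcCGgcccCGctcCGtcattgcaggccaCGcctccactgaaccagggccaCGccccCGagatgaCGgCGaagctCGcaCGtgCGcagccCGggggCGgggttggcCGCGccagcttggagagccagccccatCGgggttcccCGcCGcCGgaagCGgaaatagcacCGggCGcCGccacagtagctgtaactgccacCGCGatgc
ABCC4 (chr13:95301402-95301701, minus strand): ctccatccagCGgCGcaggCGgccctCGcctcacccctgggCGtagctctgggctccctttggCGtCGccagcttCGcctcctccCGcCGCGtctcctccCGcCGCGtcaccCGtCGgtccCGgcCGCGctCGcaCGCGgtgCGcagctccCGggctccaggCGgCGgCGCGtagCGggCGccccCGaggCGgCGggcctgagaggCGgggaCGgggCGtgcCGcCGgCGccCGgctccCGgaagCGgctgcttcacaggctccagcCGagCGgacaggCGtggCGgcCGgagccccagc
ABCC2 (chr10:99782390-99782689, plus strand): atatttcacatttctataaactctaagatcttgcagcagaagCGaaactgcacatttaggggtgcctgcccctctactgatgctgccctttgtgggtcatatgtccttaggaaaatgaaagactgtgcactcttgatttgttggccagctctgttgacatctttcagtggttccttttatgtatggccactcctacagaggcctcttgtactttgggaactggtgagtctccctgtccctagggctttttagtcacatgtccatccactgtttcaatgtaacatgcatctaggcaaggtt
ABCA5 (chr17:69327084-69327383, minus strand): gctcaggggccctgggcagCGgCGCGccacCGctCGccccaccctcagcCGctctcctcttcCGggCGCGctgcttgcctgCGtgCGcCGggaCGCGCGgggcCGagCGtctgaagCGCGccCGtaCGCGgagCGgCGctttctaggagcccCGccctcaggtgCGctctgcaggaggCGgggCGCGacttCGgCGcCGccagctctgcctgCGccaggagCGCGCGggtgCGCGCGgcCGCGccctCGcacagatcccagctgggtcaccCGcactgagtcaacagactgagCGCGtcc
ABCA10 (chr17:69244799-69245098, minus strand): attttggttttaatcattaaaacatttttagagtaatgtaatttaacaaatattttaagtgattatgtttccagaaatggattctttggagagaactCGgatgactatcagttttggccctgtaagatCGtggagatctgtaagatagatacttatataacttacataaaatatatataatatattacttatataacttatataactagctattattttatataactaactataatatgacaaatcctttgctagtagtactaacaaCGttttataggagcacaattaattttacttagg

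The ABCF1 window holds 37 CpG, the ABCC4 window 47 and the ABCA5 window 45. The ABCC2 window holds 1 and the ABCA10 window 3. A window covers a single annotated start, and several genes have others: GENCODE 29 has 4 coding starts for ABCB1, the farthest 112222 bp away, and 4 for ABCG2, the farthest 72714 bp away. For ABCA5 it has 7, the farthest 58259 bp away, and for ABCA10 3, the farthest 94786 bp away. The counts of such genes, among them 1 CpG for ABCB1 and 3 for ABCG2, therefore describe these windows only. CpG content and detection were set side by side as a description, with no methylation measured.

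**Figure D2:**
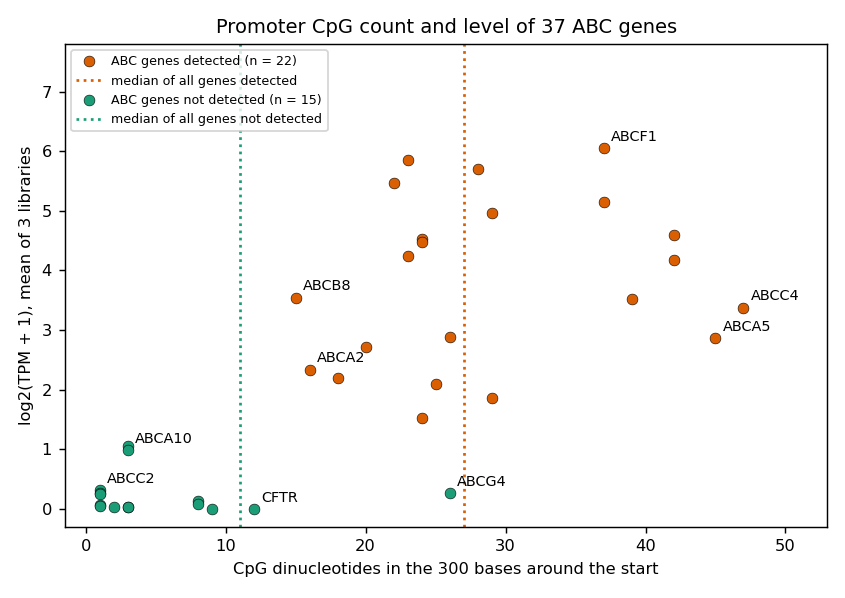
CpG dinucleotides in the promoter window (horizontal axis, count) and mean level over 3 control libraries (vertical axis, log2(TPM + 1)) of 37 ABC genes; orange points were detected and green points were not. Dotted lines are the medians of all genes detected (27) and not detected (11). Detected ABC genes begin at 15 CpG, and ABCG4 with 26 is the green point among them.

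The genes without a membrane domain had the highest median of any role, 42.8 TPM ± 2.40. ABCF1, which binds initiation factor eIF2 and ribosomes, had 64.3, 64.4 and 67.8 TPM (65.5 TPM ± 2.00, SD, n = 3; chromosome 6, 30571442 to 30591522 in RefSeq GRCh38.p14). ABCE1, which splits ribosomes into subunits after termination, had 55.8, 49.0 and 47.8 TPM (50.9 TPM ± 4.33; chromosome 4, 145098311 to 145129524). ABCF1 was above ABCE1 in every library and the ranges did not overlap. ABCF3 had 34.7 TPM ± 0.637 and ABCF2 30.2 TPM ± 1.95, and the ranges of these were also apart. That order rests on the length assigned to ABCF2, which exceeded its longest annotated transcript, and divided by the longest transcript ABCF2 would have 39.4 TPM and ABCF3 32.9. The 469 exon bases that ABCE1 shares with ANAPC10 on the opposite strand (57.7 TPM), and the 1914 that ABCF2 shares with the overlapping gene AC021097.2 on the same strand, leave part of their reads uncertain. These 4 genes, which have no known transport role, held 32.9% ± 0.895 of the family's TPM, while the 11 organelle genes held 40.1% ± 0.348. Of 12 partners in recycling and initiation 12 were detected, at a median of 71.1 TPM ± 2.74. Release factor ETF1 had 113.2 TPM ± 8.59, the rescue factors PELO and HBS1L 22.6 TPM ± 0.936 and 12.5 TPM ± 1.21, and EIF1 was highest at 1809 TPM ± 64.2.

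All 4 mitochondrial genes were detected, and ABCB6 stood above the rest. ABCB6, a porphyrin transporter of the outer mitochondrial membrane and of other membranes, had 62.2, 56.3 and 51.9 TPM (56.8 TPM ± 5.18; chromosome 2, 219209772 to 219218958). ABCB6 was 5.47 ± 0.207 times ABCB10 within libraries. GENCODE 29 also lists AC068946.2, which shares 2864 exon bases with ABCB6 on the same strand, so the split of reads between these is uncertain. ABCB8 had 10.7 TPM ± 0.641 and ABCB10, an inner membrane protein needed for heme synthesis, 10.4 TPM ± 1.33, and the ranges of these overlapped. The heme and iron-sulfur list was detected in full (12 of 12), and its median was 25.01 TPM ± 2.49. They included ALAS1, the first enzyme of heme synthesis, at 61.3 TPM ± 2.29, FECH, the last, at 29.6 TPM ± 2.87, and the scaffold gene ISCU, highest at 169.0 TPM ± 16.4.

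Both subunits of the antigen peptide transporter were present, with TAP1 above TAP2. TAP1 and TAP2 form a dimer that moves peptides from the cytosol into the endoplasmic reticulum for loading onto MHC class I. TAP1 had 42.8, 43.9 and 43.5 TPM (43.4 TPM ± 0.544; chromosome 6, 32845209 to 32853704). TAP2 had 23.2, 21.1 and 22.2 TPM (22.2 TPM ± 1.05; chromosome 6, 32821831 to 32838739). The ratio of TAP1 to TAP2 was 1.84, 2.08 and 1.96 in the libraries. TAP2 shares 2064 exon bases with AL669918.1 on the same strand, so its reads may be split. The peptide loading list was detected in full (14 of 14), and its median was 162.3 TPM ± 3.70. The bridging factor TAPBP had 19.4 TPM ± 1.59, close to TAP2, while the light chain of MHC class I, B2M, had 1319 TPM ± 7.62. The chaperone gene CALR was highest at 3119 TPM ± 304.5, and the class I activator NLRC5 was lowest at 1.67 TPM ± 0.137.

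The peroxisomal genes, whose products import fatty acyl groups, differed widely in level. ABCD3 had 26.4, 22.2 and 21.2 TPM (23.3 TPM ± 2.76). ABCD2, of the same subfamily, had 0.0933 TPM ± 0.0379 from 10.5, 10.3 and 4 estimated reads. The ranges of ABCD3 and ABCD2 did not overlap. The peroxisome list was detected in full (11 of 11) at a median of 32.1 TPM ± 0.936, from PEX3 at 8.62 TPM ± 0.0586 to the beta-oxidation enzyme HSD17B4 at 109.1 TPM ± 8.99. Of the lysosomal genes, ABCD4, which takes part in cobalamin export, had 21.1, 20.8 and 21.96 TPM, and ABCB9, a peptide transporter, 1.84, 1.86 and 1.98 TPM. The ABCB9 value is uncertain: with its longest transcript as length it would be 1.08 TPM, with 1.03 in the lowest library, and its exons share 1590 bases with ARL6IP4 (101.1 TPM) and 1656 with OGFOD2 (14.9 TPM) on the opposite strand. LMBRD1, the partner of ABCD4, had 10.9 TPM ± 0.535, and all 6 genes of the cobalamin list were detected. Counting mitochondria, peroxisomes, lysosomes and the endoplasmic reticulum together, 10 of 11 organelle genes were detected, and their median was 21.02 TPM ± 0.207.

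ABCC1 was the highest drug efflux gene, while ABCB1 and ABCG2, also well-known pumps of drug-resistant cells, were near or under 1 TPM. ABCC1, the glutathione conjugate pump MRP1, had 30.1, 26.1 and 28.0 TPM (28.1 TPM ± 2.02; chromosome 16, 15949143 to 16143053). ABCB1, the broad-range pump P-glycoprotein, had 0.18, 0.17 and 0.28 TPM from 10.9, 11.6 and 19.2 estimated reads (0.210 TPM ± 0.0608; chromosome 7, 87503017 to 87713295). ABCG2, the breast cancer resistance protein gene, had 1.41, 0.79 and 1.01 TPM (1.07 TPM ± 0.314; chromosome 4, 88090264 to 88231626). ABCG2 crossed the limit of 1 TPM between libraries and was not counted as detected. ABCC1 was 27.4 ± 5.84 times ABCG2 within libraries and 3.00 ± 0.210 times ABCC4. The ratio to ABCG2 rests on 49, 30 and 39 estimated reads of ABCG2 and on the lengths assigned. Divided by the longest transcript, ABCC1 would have 27.9 TPM and ABCG2 0.724.

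Of the 9 drug efflux genes 4 were detected. Besides ABCC1 these were ABCC4, an exporter of cyclic nucleotides and conjugates (10.4, 9.10 and 8.63 TPM), ABCC5, a related nucleotide and conjugate exporter (7.19, 6.61 and 5.36 TPM), and ABCC10 (5.26, 5.88 and 5.60 TPM). The ABCC4 range was apart from that of ABCC5, while those of ABCC5 and ABCC10 overlapped. ABCC2 and ABCC3, the pumps of the canalicular and basolateral hepatocyte membranes, had 0.247 TPM ± 0.0231 and 0.387 TPM ± 0.0902. ABCC11 had 0.187 TPM ± 0.0503, and part of its exons, 293 bases, overlap on the opposite strand with LONP2 at 54.3 TPM. The sources used here do not say whether the authors counted by strand. Those of the few ABCC11 reads that lie in the shared bases therefore cannot be told apart from reads of LONP2.

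By the median, regulators of these pumps and genes of glutathione metabolism had higher levels than the pumps. The lists overlapped in level, with AHR at 22.6 TPM ± 2.23 and GGT1 at 15.7 TPM ± 1.33 under ABCC1 at 28.1 TPM. Of 13 listed genes 12 were measured, all but the nuclear receptor NR1I2, and 11 were detected. The median of the 12 was 66.2 TPM ± 3.18, against a median of 1.07 TPM ± 0.314 for the 9 pumps. GSTP1, which conjugates glutathione to drugs, had 1037 TPM ± 71.3. GCLC and GCLM, the subunits that start glutathione synthesis, had 52.2 TPM ± 5.63 and 57.3 TPM ± 6.0. The transcription factor NFE2L2 and its inhibitor KEAP1 had 179.1 TPM ± 3.39 and 290.4 TPM ± 18.8, and the nuclear receptor NR1I3 was the gene not detected, at 0.400 TPM ± 0.281.

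**Figure D3:**
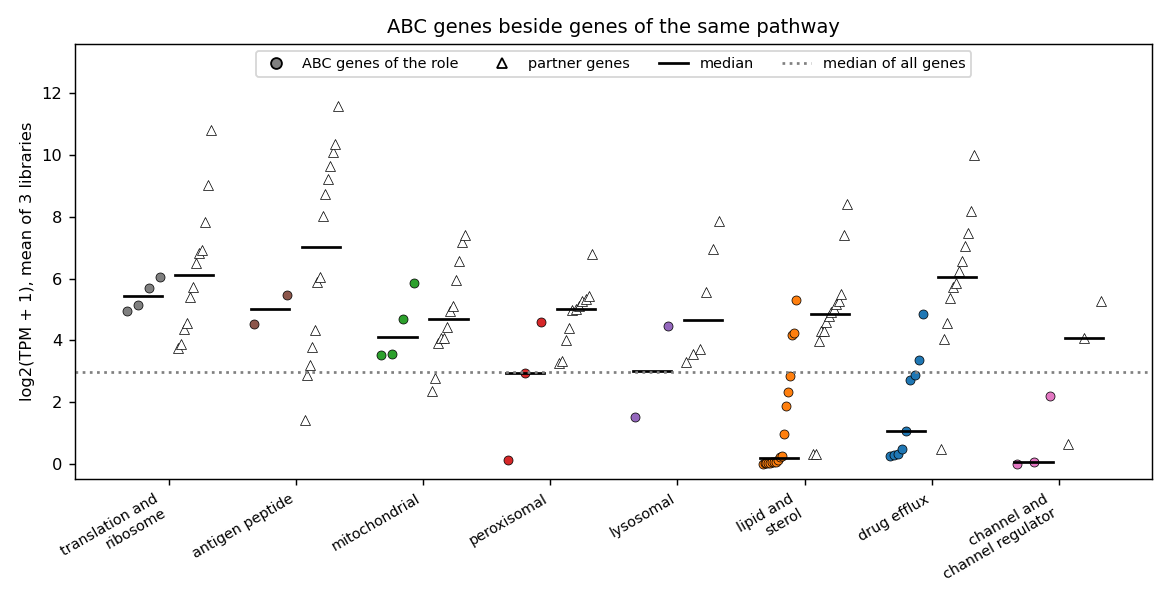
Mean level over 3 control libraries (log2(TPM + 1)) of the ABC genes of each role (coloured circles) beside the list of genes that work with them (open triangles), with bars at the medians and the median of all genes dotted. Drug efflux and lipid genes have low medians (1.07 and 0.125 TPM) beside partner lists at 66.2 and 28.2 TPM.

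Lipid and sterol genes were mostly under 1 TPM, and ABCG1, ABCA1 and ABCA3 led those detected. ABCG1, which moves cholesterol and is a target of the sterol sensors LXR, had 38.1, 40.2 and 38.8 TPM (39.0 TPM ± 1.05; chromosome 21, 42199689 to 42297244). ABCA1, which loads cholesterol and phospholipid onto apolipoproteins and is a target of the same sensors, had 20.96, 17.1 and 15.9 TPM (18.0 TPM ± 2.64; chromosome 9, 104781006 to 104928155). ABCG1 was 1.82, 2.35 and 2.43 times ABCA1 in the libraries. ABCA3, the lipid transporter of surfactant bodies in alveolar type II cells, had 17.2, 16.8 and 17.2 TPM, a range that overlapped with that of ABCA1. ABCA5 had 6.26 TPM ± 1.05, ABCA2, a gene abundant in brain, 4.05 TPM ± 0.511 and ABCA7 2.64 TPM ± 0.309. These 6 of 18 genes were the ones detected.

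The remaining 12 lipid genes had a mean of under 1 TPM. Many are known from a single tissue: ABCA4 from the retina (0.0967 TPM ± 0.0551), ABCA12 from the epidermis (0.030 TPM ± 0.010), ABCB4 and ABCB11, the phospholipid and bile salt pumps of hepatocytes (0.167 TPM ± 0.0513 and 0.0233 TPM ± 0.0208), and ABCG5 and ABCG8, the dimer that exports plant sterols. ABCG5 had 0 reads in all 3 libraries and ABCG8 5.33, 6.52 and 2.97 reads. ABCA13 had 6.97, 4.41 and 1.00 reads on the longest transcript of the family. Of 14 sterol sensing and efflux genes 12 were detected, and their median was 28.2 TPM ± 0.328. The LXR genes NR1H2 and NR1H3 had 31.1 TPM ± 0.606 and 18.7 TPM ± 1.38, and MYLIP, another LXR target, 23.0 TPM ± 1.79. Of the acceptors of exported cholesterol, APOE had 168.2 TPM ± 3.66 and APOA1 0.250 TPM ± 0.142. NPC2, which binds cholesterol in lysosomes, was highest at 344.1 TPM ± 12.0, and the plasma enzyme LCAT was at 0.260 TPM ± 0.0954.

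Of the 3 channel genes ABCC9 was detected. CFTR, the epithelial chloride channel, had 0 estimated reads in each of the 3 libraries. Over the summed reads of these libraries, a count of 0 allows a share of up to 0.0456 RPM (reads scaled by the library total; 3 reads, counting error only), and the same limit holds for ABCG5. ABCC8 and ABCC9 encode the sulfonylurea receptor subunits SUR1 and SUR2 of ATP-sensitive potassium channels. ABCC9 had 4.55, 4.0 and 2.27 TPM (3.61 TPM ± 1.19) and ABCC8 0.0433 TPM ± 0.0252 from 2, 1 and 4 reads. The pore gene KCNJ8 had 43.2, 37.2 and 32.6 TPM, while the other pore gene, KCNJ11, had 0.573 TPM ± 0.107. SLC9A3R1, the scaffold also called NHERF1 that binds CFTR, had 15.9 TPM ± 1.09.

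Outside these roles, ABCB5, a gene studied in melanoma, had 2.94, 1.81 and 1.62 TPM (2.12 TPM ± 0.714). It was 16.3, 10.6 and 5.79 times ABCB1, a long transporter of the same subfamily. These ratios rest on 10.9, 11.6 and 19.2 reads of ABCB1 and on the lengths assigned. Divided by the longest transcript, ABCB5 would have 1.59 TPM and ABCB1 0.236. ABCC6, a liver and kidney gene mutated in pseudoxanthoma elasticum, had 4.33, 3.09 and 2.42 TPM (3.28 TPM ± 0.969; chromosome 16, 16149565 to 16223494), but this rested on 60, 52.97 and 51.99 estimated reads. ABCC6 has near-identical pseudogene copies, so its reads are uncertain.

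By subfamily the detected genes were 5 of 12 in ABCA, 8 of 11 in ABCB, 6 of 11 in ABCC, 3 of 4 in ABCD, 1 of 1 in ABCE, 3 of 3 in ABCF and 1 of 5 in ABCG. The subfamily medians were 0.537 TPM ± 0.0539 in ABCA, 10.3 TPM ± 1.15 in ABCB, 3.23 TPM ± 1.04 in ABCC, 13.8 TPM ± 0.0448 in ABCD, 34.7 TPM ± 0.637 in ABCF and 0.203 TPM ± 0.0666 in ABCG. In ABCG, ABCG1 supplied 39.0 of the 40.4 TPM that the 5 genes had together. Short transporters that work as dimers, with coding sequences of 1818 to 2526 bases, were detected in 11 of 16 cases with a median of 10.5 TPM ± 0.956. Long transporters, with 3771 to 15174 bases, were detected in 12 of 27 cases with a median of 0.387 TPM ± 0.0902. The short group consists of the 11 organelle genes, of which 10 were detected, and the 5 ABCG genes, of which 1 was detected at a median of 0.203 TPM, under that of the long transporters. Length and role cannot be told apart here.

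**Figure D4:**
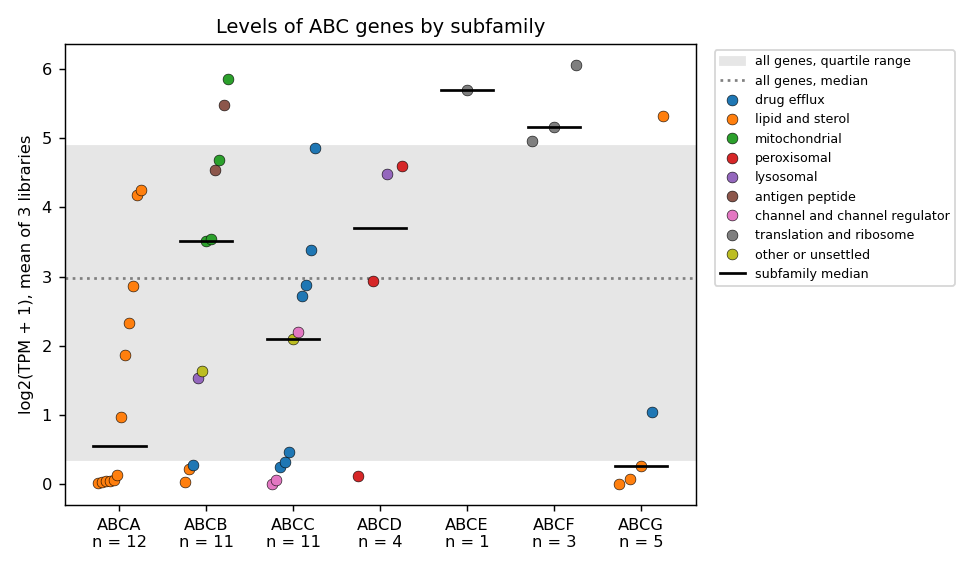
Mean level over 3 control libraries (log2(TPM + 1)) of each ABC gene by subfamily, coloured by role, with bars at subfamily medians; the grey band and dotted line are the quartile range and median of all genes. ABCE and ABCF lie above the band, and ABCG1 stands above the other 4 ABCG genes.

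Of the ABC genes that neighbour each other on a chromosome, some pairs had unlike levels and others were both near 0. ABCA8, ABCA9, ABCA6, ABCA10 and ABCA5 lie side by side on the minus strand of chromosome 17, between 68867289 and 69327133. ABCA5, at the start of the run in the direction of transcription, had 6.26 TPM ± 1.05, and ABCA10 next to it had 0.88, 1.08 and 0.96 TPM. ABCA6, ABCA9 and ABCA8, farther along, had 0.0167, 0.0433 and 0.0333 TPM, with at most 4.29 reads in any library. The annotated exons of ABCA10 and ABCA5 share 318 bases on the same strand, so part of the ABCA10 reads cannot be told apart from those of ABCA5. ABCC1 and ABCC6 lie 6511 bp apart on opposite strands, at 28.1 and 3.28 TPM. ABCB4 and ABCB1 lie 26989 bp apart on chromosome 7 and were both low. ABCG5 and ABCG8 begin within each other, overlapping by 261 bp on opposite strands of chromosome 2, and had 0 and 0.0533 TPM.

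The order of levels was partly resolved by the spread between libraries. In the list of 27 detected genes sorted by mean, the ranges of neighbours overlapped in 17 of 26 pairs and were apart in 9. ABCF1, TAP1, ABCG1 and ABCF3 each stood apart from the gene just under them. These ranges cover the spread between libraries, not the length assigned to each gene. Divided by the longest transcript, TAP1 would have 37.5 TPM and ABCG1 38.5, and ABCF3 32.9 and ABCF2 39.4, so those orders would turn over. ABCB6 and ABCE1 overlapped, as did the run ABCD3, TAP2, ABCD4, ABCA1 and ABCA3, each with the next. Within libraries, 5 of the 17 overlapping pairs kept the same order in all 3, among them ABCB6 above ABCE1, TAP2 above ABCD4 and ABCD4 above ABCA1. The last of these also depends on length: divided by the longest transcript, ABCD4 would have 15.7 TPM and ABCA1 18.4. Just above the limit for detection were ABCB9 (1.89 TPM ± 0.0757) and ABCB5, and just under it ABCG2 (1.07 TPM ± 0.314) and ABCA10 (0.973 TPM ± 0.101).

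The spread of ABC genes between libraries lay near that of all genes, or somewhat under it. The SD of reads, scaled to equal totals, exceeded 2 times the counting SD in 13 of the 33 ABC genes with at least 10 reads, against 41.4% of all such genes. The median ratio of the SD to the counting SD was 1.38 for these ABC genes and 1.71 for all such genes. The ratio was highest for ABCA1 at 6.20 and ABCC9 at 6.01, followed by ABCA5 at 3.91 and ABCB5 at 3.37. These 4 genes had their highest TPM in control library 1 and their lowest in control library 3. For a given relative spread the ratio grows with reads, so this order also reflects depth. ABCA1 had a coefficient of variation of 14.7% on a mean of 2346 reads, and ABCB5 33.6% on 112. ABCF3, with a ratio of 0.340, and ABCB9, with 0.426, varied no more than counting allows. ABCB9 had a mean of 80.3 reads, so a modest spread could be missed. Among the detected ABC genes the median coefficient of variation was 7.18%, with a highest value of 33.6% for ABCB5, against a median of 7.56% for all detected genes. Control library 1 was highest for 18 of 27 detected ABC genes and control library 3 lowest for 13. Over all detected genes library 1 was highest for 57.7% and library 3 lowest for 52.8%.

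The level of a few genes rested on the length that the authors' pipeline assigned to them. The ratio of estimated reads to TPM gives that length, which was calibrated on 2264 genes with a single annotated transcript. For ABCA1 it came to 10666 bases against 10494 for the longest GENCODE 29 transcript, and for ABCC1 to 6554 against 6594. For ABCC6 it came to 1371 bases against 5747. The ratio of implied to longest length was 0.791 and 1.07 at the 10th and 90th percentiles of the genes used for calibration, and of 33 ABC genes 7 lay below this range and 4 above it. Above it were ABCF2 at 1.31, ABCC11 at 1.27 and ABCB1 at 1.13, among others. Below it were TAP2 at 0.753, ABCB5 at 0.743 and ABCD4 at 0.741, and farther below were 4 more. Their ratios were 0.239 for ABCC6, 0.573 for ABCB9, 0.624 for ABCC5 and 0.671 for ABCG2. Divided by the longest transcript instead, ABCC6 would have 0.786 TPM in place of 3.28, ABCC5 4.001 in place of 6.39, ABCB9 1.08 in place of 1.89 and ABCG2 0.724 in place of 1.07. Of these, ABCC6 would no longer count as detected. ABCC6 is also the median ABC gene by mean level, so the family median shares this limit.

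**Figure D5:**
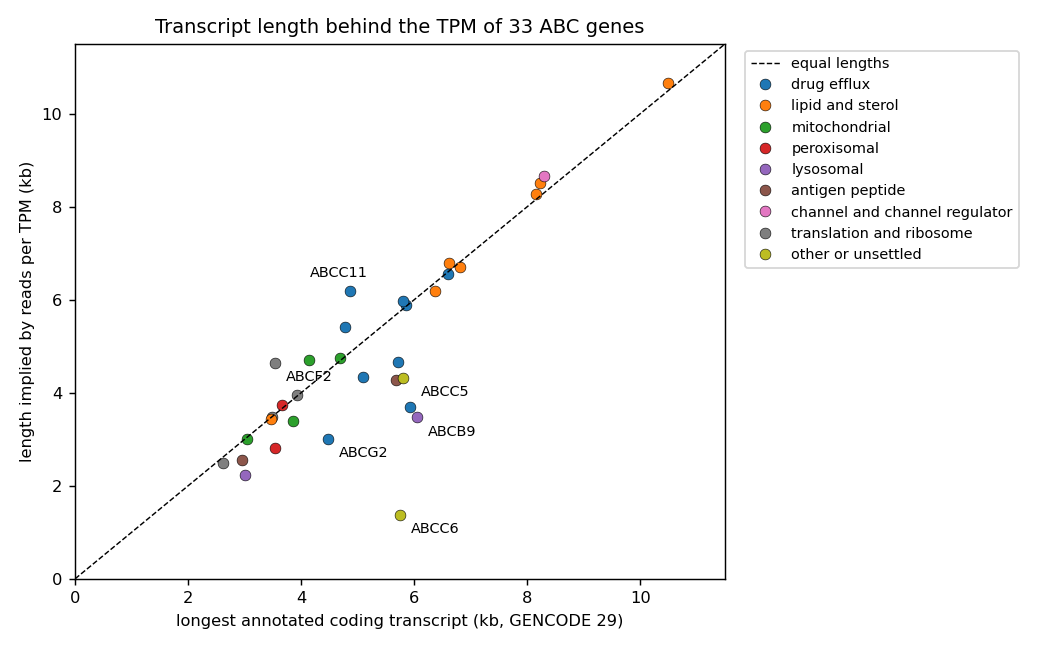
Longest annotated coding transcript (horizontal axis, kb) and the length implied by reads per TPM (vertical axis, kb) for the 33 ABC genes with at least 10 estimated reads, coloured by role, with equal lengths dashed. ABCC6 lies far under the line (1371 against 5747 bases), and ABCC5, ABCB9 and ABCG2 lie under it as well.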

How the data were processed

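BGI made strand-keeping libraries of poly(A) RNA, all in 1 named batch, for a DNBSEQ-T7 instrument, per the labels' protocols. HISAT2, StringTie, DESeq2 and GRCh38 are named in the submitters' processing notes without versions or roles. Per the file headers, the authors deposited TPM, FPKM and a read column for each library. The estimated counts of that column, as deposited, are not whole reads (24.0% are whole), and FPKM is TPM times a constant within each library. Columns went to samples by name only, and 12 columns of 3 libraries that match no label have no sample here and entered no step.

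From these values, TPM were averaged over 3 control libraries and placed beside all 17170 genes. Detection is at least 1 TPM in every library. The spread ratio divides the SD of reads scaled to equal totals by the counting SD, and was tested on simulated data of 12880 genes: 1.78% of unvaried genes passed 2, and 90% of 200 genes varied by 20%. The varied genes were drawn from those with a mean of at least 200 estimated reads. The 90% therefore does not cover genes with fewer reads. Positions, names and promoters are from RefSeq (GRCh38.p14), and transcript lengths and overlaps from GENCODE 29, also GRCh38. Motifs were searched on both strands. TPM sum to the same total in each library, so a level is relative to all other genes. ABC genes with a mean under 1 TPM rest on few reads, except ABCA10 with a mean of 73.6 reads. The limit set by 0 reads covers counting error only.

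The genes given in full are the 3 highest of each role, ABCB1, ABCG2, ABCC1, ABCA1, CFTR, TAP1, TAP2, ABCE1 and chromosome neighbours; of partner lists the highest gene and those under 1 TPM. Other partners were named for their role after their values were seen. The members, lists and roles were chosen with earlier results of these data known. Library pairs differed by more than counting error (chi-square per degree of freedom at least 6.22), so none was a repeat deposit. Python 3.11.15, pandas 2.3.3, numpy 2.4.6 and matplotlib 3.10.9 were used. The values of a few genes are not reported here, and those genes still count in the totals and medians.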

Additional observations from a re-analysis of the deposited data

How the results depend on the processing

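No paired analysis was possible because the knockout labels, which share replicate numbers with the control, have no matching columns. ABC genes detected were 27, and 21 to 33 under the alternatives (29 and 21 with minimums of 0.5 and 5 TPM, 33 with at least 10 estimated reads, 26 with FPKM, 27 or 28 without each library). The drug efflux count was 4 of 9, and 9 with at least 10 estimated reads, since 10 reads are worth under 1 TPM for these long transcripts; it was 4 or 5 otherwise. Lipid and sterol genes ranged from 4 to 7 against 6, and organelle genes from 9 to 10 against 10. Of these limits, the share of all genes is given at 1 TPM only (66.5%). The counts at the other limits therefore cannot be set against the whole table. The median ABC gene lay -0.88 from the median of all genes on the log2(TPM + 1) scale and below it under each alternative. The difference was -0.49 on estimated reads scaled to equal totals, a scale without length, and -0.085 among detected genes only. The last value is smaller than the SD of the main difference between libraries, 0.238, so no shortfall was resolved among detected genes. Without ABCE and ABCF it was -1.33, since these are abundant, and without each library it was -1.02 to -0.78. The alternatives without ABCE and ABCF, by the mean alone (28 detected) and with the longest transcript as length (26 detected) were chosen after seeing the data.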

Other observations

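Promoter motifs of the 37 ABC genes with a RefSeq window were counted on both strands as a description, and all 6 patterns searched are given. The GC box GGGCGG was in 18 of 22 windows of detected ABC genes and 2 of 15 of the others, against 71.5% and 45.8% over all genes with a window. The core of the antioxidant response element, TGACNNNGC, was in 7 of 22 windows of detected genes (ABCF1, ABCB6, ABCD4, ABCA3, ABCC4, ABCA5 and ABCA2) and 0 of 15 of the others, against 15.2% and 12.9% over all genes. Of the drug efflux genes with a window, ABCC4 held it. The other patterns showed less contrast by detection. CCAAT was in 5 of 22 windows of detected genes and 3 of 15 of the others (8 of 37, against 36.2%). CACGTG was in 3 of 22 and 1 of 15 (4 of 37, against 9.34%). TATAAA was in 3 of 22 and 3 of 15 (6 of 37, against 7.69%). The interferon response pattern was GAAA then any 2 bases then GAAA. It was in 2 of 22 (TAP1 and TAP2) and 2 of 15 (ABCC2 and ABCA9), or 4 of 37, against 2.98%. These motifs were chosen with the levels known, and a match is not a binding site.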
